A study of Homo sapiens with 8 samples.

Results

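DHRS2, CPA4, TXNIP, ARRDC4, GSN and CLU are 6 genes that are widely known to respond to histone deacetylase (HDAC) inhibitors or that stood out for their response to one here. They were found by symbol among the 23228 genes listed in each count file, and 5 of the 6 had enough reads for the statistical test. The exception was ARRDC4, which was close to undetected in every library. The genes were selected on their counts in these same libraries, namely their response to vorinostat against vehicle and, for CPA4, its low counts with EC359, so their changes with vorinostat or the combination against vehicle are given below as a description without a test.

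The cells were BT-549, an established human triple negative breast cancer (TNBC) line with mesenchymal features. The treatments lasted 24 h and consisted of vehicle (DMSO), 100 nM EC359, 10 µM vorinostat, and a combination of both agents at these doses. Total RNA was sequenced in 2 libraries per treatment. Vorinostat (also called SAHA) is an HDAC inhibitor, and EC359 is a small-molecule inhibitor of the leukemia inhibitory factor receptor (LIFR). The comparisons ask what vorinostat does to these genes with and without LIFR inhibition, in 1 cell line at 1 dose of each agent and 1 time point.

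HDACs remove acetyl groups from histones and other proteins, and inhibitors of these enzymes raise histone acetylation and change the transcription of many genes in both directions. Some genes rise under such inhibitors in cells of many origins and are used as markers of exposure. Among them are TXNIP, an alpha-arrestin that binds thioredoxin and restrains glucose uptake, and GSN, which encodes the actin-severing protein gelsolin. CPA4 encodes a secreted carboxypeptidase, DHRS2 a short-chain dehydrogenase/reductase, and CLU the extracellular chaperone clusterin. ARRDC4 is the closest relative of TXNIP among the alpha-arrestins, and both are known targets of the glucose-sensing transcription factor MondoA (MLXIP) with its partner MLX.

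The 250 bases before the RefSeq start of 4 of the genes are shown because these genes fell into contrasting pairs. DHRS2 and CPA4 went from low to high levels with vorinostat, whereas of the alpha-arrestins TXNIP and ARRDC4 only TXNIP was expressed. All 4 windows come from RefSeq, were located on GRCh37 by a single exact match, and are written on the plus strand, which is the coding strand of each gene. DHRS2 is at chr14:24099074-24099323, CPA4 at chr7:129932751-129933000, TXNIP at chr1:145438240-145438489 (the upstream of its 2 RefSeq start sites) and ARRDC4 at chr15:98503683-98503932. Capitals mark matches on either strand to the motifs described after the sequences.
DHRS2: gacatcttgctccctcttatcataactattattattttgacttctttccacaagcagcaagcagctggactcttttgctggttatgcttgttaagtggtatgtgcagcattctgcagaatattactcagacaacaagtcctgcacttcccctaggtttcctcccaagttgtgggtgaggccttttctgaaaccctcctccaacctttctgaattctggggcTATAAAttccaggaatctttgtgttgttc
CPA4: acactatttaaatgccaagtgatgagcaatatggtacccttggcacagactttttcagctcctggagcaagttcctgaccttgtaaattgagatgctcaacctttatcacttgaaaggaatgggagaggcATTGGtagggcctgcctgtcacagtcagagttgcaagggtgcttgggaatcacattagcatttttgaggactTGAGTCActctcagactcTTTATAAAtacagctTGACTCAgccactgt
TXNIP: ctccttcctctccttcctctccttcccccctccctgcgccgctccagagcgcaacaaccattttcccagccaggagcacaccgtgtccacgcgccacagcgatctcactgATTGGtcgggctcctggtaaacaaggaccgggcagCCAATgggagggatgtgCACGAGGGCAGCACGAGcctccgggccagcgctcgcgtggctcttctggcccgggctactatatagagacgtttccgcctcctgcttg
ARRDC4: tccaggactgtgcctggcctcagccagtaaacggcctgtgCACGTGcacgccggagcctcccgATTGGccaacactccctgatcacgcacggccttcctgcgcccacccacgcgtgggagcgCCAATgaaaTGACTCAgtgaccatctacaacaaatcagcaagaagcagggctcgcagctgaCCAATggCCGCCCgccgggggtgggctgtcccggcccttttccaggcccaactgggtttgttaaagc

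The letters TATAAA, the TATA box that places the start of transcription in some promoters, were found in the DHRS2 window at positions -29 to -24 from the start and in the CPA4 window at -28 to -23. In CPA4 they also occurred on the other strand at -30 to -25, overlapping the first match. These exact letters were in 10.7% of the 35116 RefSeq windows of the same length, and neither alpha-arrestin window held them. Variants of the TATA box were not searched, and the TXNIP window held the letters TATATA near its end. The CPA4 window also held TGANTCA, the AP-1 site, at -48 to -42 and at -15 to -9, and ARRDC4 held it at -119 to -113, against 6.57% of all windows. CCAAT was in the CPA4, TXNIP and ARRDC4 windows and in 32% of all windows, and GGGCGG, the GC box, was in the ARRDC4 window and in 42.6% of all windows.

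The TXNIP window held the paired half-sites of the carbohydrate response element through which MondoA acts, that is CACGNG followed after 5 bases of any kind by CACGNG again, at -88 to -72 as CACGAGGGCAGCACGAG. Only 16 of all windows, or 0.0456%, held these letters on either strand. ARRDC4 did not hold them in its window but held the E-box CACGTG at -210 to -205, a motif of 6.34% of windows. The base composition also separated the pairs, with 43.2% and 44.4% G or C in DHRS2 and CPA4 against 63.6% and 62.8% in TXNIP and ARRDC4. A match to a motif describes the sequence and does not show that a factor bound there, and the letters of a motif may lie outside a window.

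On GRCh37, DHRS2 is a protein-coding gene at chr14:24099324-24114848, CPA4 at chr7:129932974-129964020, TXNIP at chr1:145438490-145442635 and ARRDC4 at chr15:98503933-98517063. GSN lies at chr9:123970072-124095121 and CLU at chr8:27454434-27472217. CLU is on the minus strand and the other 5 genes are on the plus strand. GSN overlaps RAB14, which is on the opposite strand, and whether the authors counted reads by strand is not given in the sources used here. Reads of the shared stretch could therefore not be assigned with certainty, while RAB14 itself had a log2 fold change of -0.04 (SE 0.10, edgeR adjusted p = 0.75) with vorinostat.

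Each library held between 19069450 and 24759041 reads counted on genes. Reads outside annotated genes made up 11.0% to 12.1% in the vehicle and EC359 libraries and 12.3% to 14.2% in the libraries with vorinostat. These shares are of reads on genes, outside genes or ambiguous between genes, and the part of such reads in the results was not tested. VIM, ZEB1, CD44 and AXL, markers of mesenchymal TNBC cells, summed to between 3932 and 4129 CPM in vehicle, where CPM is the TMM-normalised count scaled to equal library sizes. ESR1, PGR, CDH1 and EPCAM were each under 1 CPM on average in vehicle. ERBB2, at 99.1 ± 4.2 CPM (SD, n = 2), was the marker of the low or absent list that was clearly present there. The immune marker PTPRC was at 0.681 ± 0.038 CPM (SD, n = 2) in vehicle, where CD3E was at 0, and the endothelial markers PECAM1 and CDH5 summed to at most 0.409 CPM in any library. The authors state for in vitro assays in general that biological replicates were used, without naming the RNA sequencing. Whether the 2 libraries of a treatment came from separate cultures is thus not given. The p-values below measure the spread between libraries, which may be technical. In bulk RNA, a change in the share of cells that express a gene and a change in RNA per cell cannot be told apart.

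The 6 genes together took 0.0459% and 0.0462% of gene counts in the 2 vehicle libraries. They took 0.0548% and 0.0707% with EC359, 0.284% and 0.281% with vorinostat, and 0.354% and 0.349% with the combination. The vorinostat and combination libraries thus stood well above the others, and the libraries of different treatments did not overlap.

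**Figure D1:**
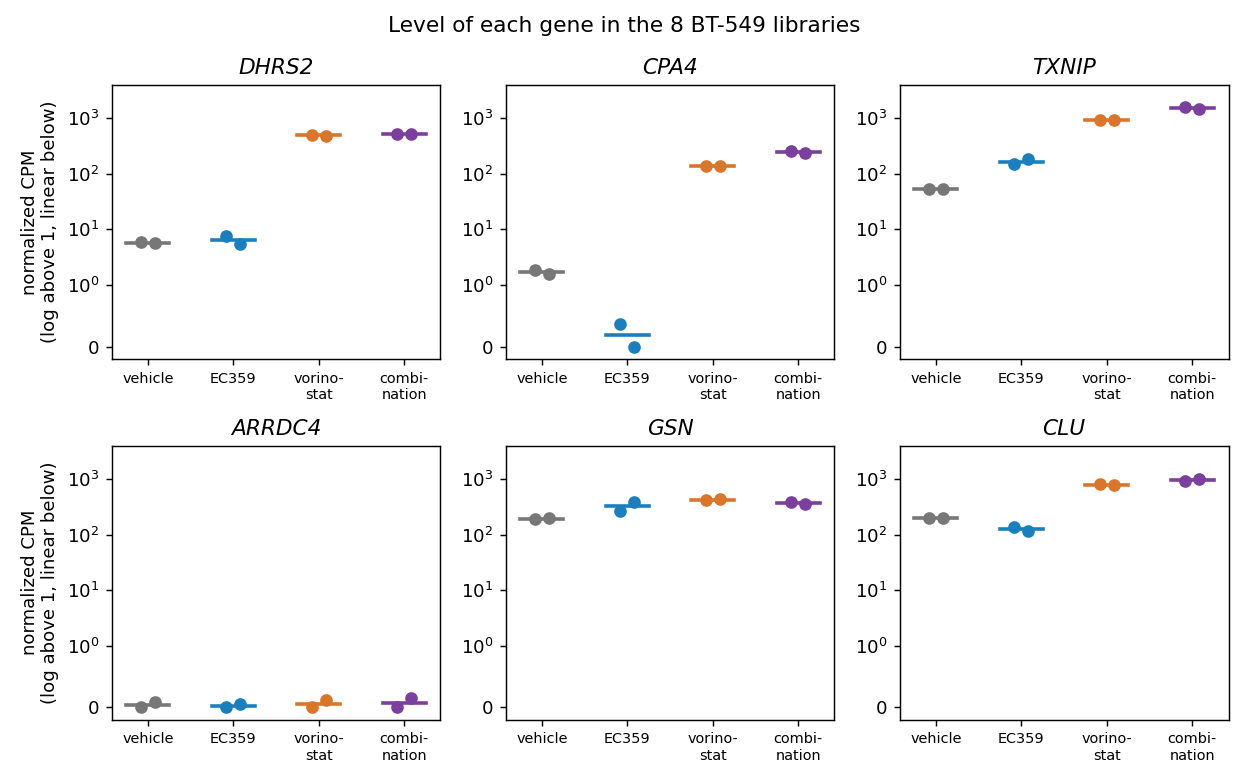
Normalised CPM of each gene in the 8 BT-549 libraries, 1 panel per gene, with 1 point per library and a line at the mean of the 2 libraries; the y axis is logarithmic above 1 and linear below. DHRS2, CPA4, TXNIP and CLU stood highest in the vorinostat and combination libraries, GSN varied least among the expressed genes, and ARRDC4 stayed at or below 0.153 CPM throughout.

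DHRS2 showed the simplest pattern: it was low without vorinostat and high with it, whatever else was added. Its level was 5.95 and 5.61 CPM in the vehicle libraries and 7.55 and 5.48 CPM with EC359, so these groups overlapped. It reached 497 and 488 CPM with vorinostat and 528 and 527 CPM with the combination. In raw reads this was 126 and 120 in vehicle against 9660 and 11490 with vorinostat. The log2 fold change of vorinostat against vehicle was 6.41 (SE 0.15), an 85.2-fold difference that ranked 128 of the 13694 genes tested. On the same scale the combination against vehicle was at 6.51 (SE 0.15).

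CPA4, like DHRS2, was low in vehicle, but it did not share the flat response of DHRS2 to EC359. The vehicle libraries held 39 and 34 reads of CPA4, the EC359 libraries 9 and 0, the vorinostat libraries 2699 and 3228, and the combination libraries 5118 and 4646. As normalised CPM these were 1.84 and 1.59, 0.371 and 0, 139 and 137, and 262 and 237, and no groups overlapped. CPA4 was thus lowest with EC359 alone and highest when EC359 was added to vorinostat. The vorinostat libraries held 80.5 times the normalised counts of vehicle (exact 95% counting interval 63.9 to 103). The combination libraries held 1219 times those of EC359 alone (642 to 2667), a ratio that rests on 9 reads in 1 EC359 library. These intervals cover counting error only.

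Vehicle held 8.37 times as many normalised CPA4 counts as EC359 (4.18 to 19.0). The fitted log2 fold change of EC359 against vehicle was -3.04 (SE 0.53), and it was -8.15 without EC359 replicate 1 and -2.18 without EC359 replicate 2. A count of 0 in EC359 replicate 2 allows up to 0.152 CPM. The low counts of CPA4 under EC359 were known when the gene was chosen, so this difference carries no test. Vorinostat against vehicle was at 6.33 (SE 0.26) on the log2 scale, ranking 136 of 13694, and combination against vehicle at 7.18 (SE 0.27).

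TXNIP rose in steps from vehicle through EC359 and vorinostat to the combination, with no overlap between neighbouring groups. Its level was 53.0 and 53.8 CPM in vehicle, 151 and 182 CPM with EC359, 927 and 920 CPM with vorinostat, and 1605 and 1472 CPM with the combination. TXNIP was the member with the most reads under each treatment with vorinostat, at 18021 and 21637 with vorinostat alone. The log2 fold change of vorinostat against vehicle was 4.11 (SE 0.12), a 17.3-fold difference and rank 458 of 13694, and that of the combination against vehicle was 4.85 (SE 0.12).

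ARRDC4, the paralogue of TXNIP, was not detectable at this depth as a vorinostat-responsive gene. Its reads numbered 0 and 2 in vehicle, 0 and 1 with EC359, 0 and 3 with vorinostat, and 0 and 3 with the combination. The 9 reads over all 8 libraries overlapped between every pair of treatments, and the highest level was 0.153 CPM. The limit that a count of 0 allows lay between 0.124 and 0.154 CPM in these libraries. Because all groups were at or under this limit, no fold change is given, and the description of the gene as vorinostat-induced was not borne out in BT-549.

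GSN had the smallest vorinostat response of the 5 expressed genes. Its level was 191 and 197 CPM in vehicle, 261 and 383 CPM with EC359, 426 and 430 CPM with vorinostat, and 389 and 361 CPM with the combination. The EC359 libraries differed widely and overlapped with the combination libraries, whereas vorinostat alone gave the highest level. The log2 fold change of vorinostat against vehicle was 1.14 (SE 0.15), or 2.21-fold, at rank 2579 of 13694. On the log2 scale the combination against vehicle was at 0.95 (SE 0.15).

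CLU was already well expressed in vehicle, at 202 and 196 CPM. It was at 139 and 114 CPM with EC359, 802 and 776 CPM with vorinostat, and 929 and 1019 CPM with the combination. As for CPA4, the order of the groups was EC359, vehicle, vorinostat and combination, with no overlap between neighbours. The log2 fold change of vorinostat against vehicle was 1.99 (SE 0.11), or 3.96-fold, at rank 1435 of 13694, and that of the combination against vehicle was 2.29 (SE 0.11). For orientation, the median log2 fold change of all tested genes was 0.03 for vorinostat against vehicle and 0.07 for the combination against vehicle. In the combination against vehicle 29.7% of all tested genes were called higher and 26.7% lower at an adjusted p under 0.01, or 19.5% and 15.3% with a threshold of 2-fold added.

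Levels can be compared between genes only per length of transcript. Per kilobase of all annotated exons (RPKM), the order under vorinostat was TXNIP at 257, CLU at 125, DHRS2 at 65.5, GSN at 38.7 and CPA4 at 34.9. Per kilobase of the canonical transcript alone, an alternative chosen after the data were seen, it was TXNIP at 319, DHRS2 at 294, CLU at 287, GSN at 165 and CPA4 at 49.5. TXNIP stood first and CPA4 last by both lengths, whereas DHRS2 and CLU exchanged places. In vehicle, DHRS2 and CPA4 were at 0.767 and 0.433 RPKM by all exons, against 14.8 for TXNIP, 17.5 for GSN and 31.7 for CLU. By the canonical transcript DHRS2 and CPA4 were at 3.45 and 0.615 in vehicle, against 18.4 for TXNIP, 74.6 for GSN and 72.4 for CLU.

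The effect of vorinostat was tested where EC359 was present in both groups. These libraries were not part of the contrast of vorinostat with vehicle. The genes were nevertheless chosen with earlier results of these data known, so the p-values are not independent of that choice. Of the 4 genes tested for the combination against EC359, DHRS2, TXNIP and CLU rose and GSN did not pass (edgeR quasi-likelihood test, Benjamini-Hochberg adjusted p under 0.01 over 13694 genes). All 3 also passed the 2-fold threshold. For comparison, 29.5% of all tested genes were called higher and 26.3% lower in this comparison, or 19.8% and 13.9% with the 2-fold threshold. DHRS2 rose by a log2 fold change of 6.33 (SE 0.15, adjusted p = 3.1e-08), TXNIP by 3.21 (SE 0.11, adjusted p = 9.4e-08) and CLU by 2.94 (SE 0.11, adjusted p = 1.5e-07). All genes together had a median of 0.06.

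GSN did not differ detectably between the combination and EC359, with a log2 fold change of 0.22 (95% interval -0.12 to 0.56, edgeR adjusted p = 0.22). This value depended on which EC359 library was used. Without EC359 replicate 1 it was -0.043 (edgeR adjusted p = 0.62), and without EC359 replicate 2 it was 0.50 (edgeR adjusted p = 6.1e-05). CPA4 stood at 10.22 (SE 0.34) in the same comparison and is given without a test, and was at 15.33 without EC359 replicate 1 and 9.35 without EC359 replicate 2.

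EC359 alone moved these genes in different directions. The vehicle libraries of this comparison also served in the choice of the genes, so its p-values are not independent of that choice. Of the 4 tested against vehicle, TXNIP rose, CLU fell, and GSN and DHRS2 did not pass, where 3.81% of all tested genes were called higher and 4.01% lower at an adjusted p under 0.01. TXNIP rose by 1.64 on the log2 scale (SE 0.11, edgeR adjusted p = 1.6e-05), or 3.12-fold, and it alone of the 4 passed the 2-fold threshold, as 1.94% of all genes did upward and 1.72% downward. CLU fell by 0.65 (SE 0.11, edgeR adjusted p = 0.0035). The call for CLU was lost without either vehicle library, at -0.62 (edgeR adjusted p = 0.043) without vehicle replicate 1 and -0.67 (edgeR adjusted p = 0.033) without vehicle replicate 2. It was also lost without any 1 vorinostat or combination library, with adjusted p between 0.011 and 0.013.

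GSN was 0.73 higher on the log2 scale with EC359 (SE 0.15) but missed the threshold (edgeR adjusted p = 0.012), its EC359 libraries being spread from 261 to 383 CPM. It passed in DESeq2 at 0.74 (adjusted p = 7.3e-05), without the filter on low counts at 0.76 (edgeR adjusted p = 0.0020), and without either EC359 library, at 0.99 and 0.44. DHRS2 did not differ detectably, at 0.18 (95% interval -0.16 to 0.52, edgeR adjusted p = 0.45), and was at -0.071 without EC359 replicate 1.

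CPA4 and TXNIP were higher with EC359 added to vorinostat than with vorinostat alone, and the other 3 genes did not pass the threshold. The vorinostat libraries likewise served in the choice of the genes, and the same limit holds for these p-values. The share of all tested genes called was 8.45% higher and 5.26% lower, and neither of these 2 genes reached the 2-fold threshold that 3.37% of genes passed upward. CPA4 was 0.85 higher in the combination than in vorinostat alone (SE 0.19, edgeR adjusted p = 0.0095), and TXNIP was 0.74 higher (SE 0.10, edgeR adjusted p = 0.0011). The call for CPA4 was marginal. It was lost when either library of vehicle, vorinostat or combination was left out, with values of 0.74 to 0.88 and edgeR adjusted p up to 0.10, and under 2 other normalisations given in the closing section. TXNIP lost its call without any 1 vorinostat or combination library, with values of 0.64 to 0.76 and edgeR adjusted p of 0.012 to 0.026.

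CLU stood 0.30 higher in the combination than in vorinostat alone (SE 0.10, edgeR adjusted p = 0.058) and passed without either EC359 library, at 0.31 (edgeR adjusted p = 0.0014 and 0.0013). DHRS2 was at 0.10 (95% interval -0.16 to 0.36, edgeR adjusted p = 0.56) and GSN at -0.19 (95% interval -0.53 to 0.15, edgeR adjusted p = 0.38).

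**Figure D2:**
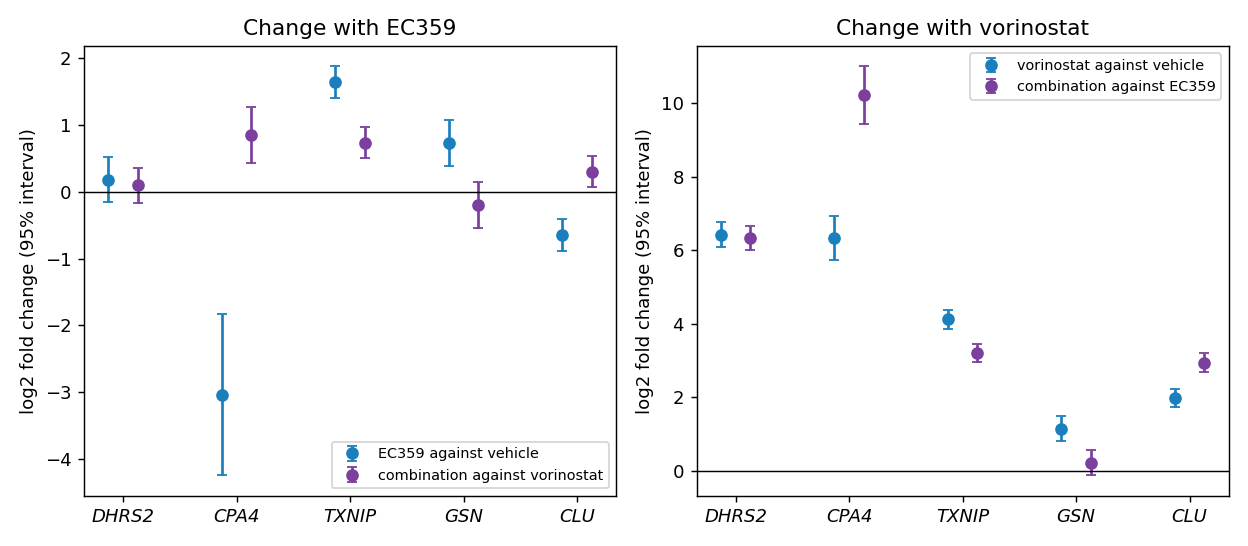
Log2 fold change with its 95% interval for the 5 expressed genes; the left panel gives the change with EC359 in the absence and presence of vorinostat, and the right panel the change with vorinostat in the absence and presence of EC359. DHRS2 had nearly the same change in both settings of each panel, at 6.41 and 6.33 with vorinostat, whereas CPA4 and CLU lay below 0 with EC359 alone and above 0 with EC359 added to vorinostat.

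Set side by side, the change with vorinostat was larger in the presence of EC359 for CPA4 and CLU and smaller for TXNIP and GSN. The difference between the 2 settings, as the interaction estimate on the log2 scale, was 3.89 (SE 0.56) for CPA4 and 0.96 (SE 0.15) for CLU. It was -0.90 (SE 0.14) for TXNIP, -0.92 (SE 0.22) for GSN and -0.08 (SE 0.19) for DHRS2. TXNIP nevertheless had its highest level in the combination, and it was the one gene of the tested 4 that EC359 alone also raised. These estimates include the vehicle and vorinostat libraries through which the genes were chosen and have no test. Over all genes, 1.62% were called with a positive and 0.482% with a negative interaction at an adjusted p under 0.01.

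Each gene has relatives or partners by role, and these changed in both directions. Under vorinostat against vehicle, where 26.2% of all tested genes were called higher and 25.9% lower (16.8% and 13.3% with the 2-fold threshold), the 3 tested alpha-arrestins outside the 6 genes all rose (edgeR adjusted p under 0.01). Their median log2 fold change was 1.09, against 0.03 for all genes, and ARRDC5 was listed at 0 in every library. ARRDC3, which directs receptors to degradation, rose by 1.19 with vorinostat (SE 0.11, edgeR adjusted p = 1.4e-05), from 144 ± 4.39 to 328 ± 6.32 CPM (SD, n = 2). Unlike TXNIP, ARRDC3 fell by 1.27 when EC359 was added to vorinostat (edgeR adjusted p = 7.3e-05), to 136 ± 0.811 CPM. ARRDC1 was at 1.09 with vorinostat and -0.02 with the further addition of EC359.

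Among the MondoA network, thioredoxin system, glucose transporters and hexokinases, 11 of 19 tested genes rose with vorinostat, 5 fell and 3 did not pass, with a median of 0.76. MLXIP, which encodes MondoA, rose by 0.76 (edgeR adjusted p = 0.0035), while its partner MLX was at 0.03 (edgeR adjusted p = 0.83). MLXIPL, of the same network, rose by 4.81 (edgeR adjusted p = 0.0026) but held only 17 and 18 reads in the vorinostat libraries. The thioredoxin reductase gene TXNRD1 rose by 2.03 and thioredoxin itself, TXN, the partner bound by TXNIP, fell by 0.54 (edgeR adjusted p = 3.3e-07 and 0.0026). The glucose transporter genes SLC2A3 and SLC2A4 rose by 2.39 and 5.23, and SLC2A10 fell by 2.67. With EC359 alone, 5 of the 19 rose and 1 fell, against 3.81% and 4.01% of all tested genes called higher and lower. HK2, a hexokinase that starts glucose use, rose by 1.88 with EC359 (edgeR adjusted p = 3.1e-06), and SLC2A1 and SLC2A3 rose by 0.86 and 0.84. SLC2A3 also rose by 1.63 when EC359 was added to vorinostat (edgeR adjusted p = 2.2e-06), from 502 ± 13 CPM.

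Of 5 tested genes of the gelsolin family, FLII fell by 0.97 with vorinostat (edgeR adjusted p = 7.7e-06) and the other 4 did not pass, with a median of -0.11. VILL and AVIL, relatives of villin, were at 1.90 and 1.16 (edgeR adjusted p = 0.062 and 0.069), both under 1 CPM on average in each treatment. SVIL, which encodes supervillin, was at -0.11 with vorinostat but rose by 0.80 with EC359 (edgeR adjusted p = 0.0040) and by 0.93 with EC359 added to vorinostat (edgeR adjusted p = 0.0014). CAPG, an actin-capping relative, was at -0.12 with vorinostat (edgeR adjusted p = 0.27).

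Of the other M14 carboxypeptidases, 5 of 16 listed genes were tested, and 3 rose, 1 fell and 1 did not pass with vorinostat, with a median of 1.03. The gene of carboxypeptidase M, a membrane-bound enzyme, rose by 3.71 (edgeR adjusted p = 3.3e-07), from a normalised level of 2.70 ± 0.146 in vehicle to 35.4 ± 1.5 (SD, n = 2). CPD, which works in the secretory pathway, rose by 1.39 with vorinostat and by a further 1.27 with EC359 added (edgeR adjusted p = 2.5e-06 and 2.9e-05). CPE, which trims prohormones, rose by 1.03, and CPA3, the mast cell enzyme of the same subfamily as CPA4, fell by 2.01 (edgeR adjusted p = 0.0083) at a level of 2.12 ± 0.613 CPM in vehicle.

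Of 11 tested DHRS genes, 2 rose, 3 fell and 6 did not pass with vorinostat, with a median of 0.27. DHRS7B rose by 1.30 (edgeR adjusted p = 4.2e-05). DHRS4 and DHRS4L2, near-identical copies of each other whose reads could be split between them, fell by 1.83 and 2.00 (edgeR adjusted p = 2.0e-04 and 0.0076). DHRS9 was at 3.91 but missed the threshold (edgeR adjusted p = 0.013), at under 1 CPM with vorinostat.

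Of 4 tested secreted chaperones and clusterin receptors, 1 rose, 2 fell and 1 did not pass with vorinostat, with a median of -0.08. APOE, which like CLU is a secreted apolipoprotein, rose by 1.86 (edgeR adjusted p = 1.4e-05). LRP8 and VLDLR, which encode receptors for both proteins, fell by 1.13 and 0.43 with vorinostat and rose by 1.27 each with EC359 (edgeR adjusted p = 1.2e-04 and 5.3e-05), opposite to CLU under both agents.

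Of 12 other genes widely known to rise with HDAC inhibitors, 11 rose with vorinostat, all over 2-fold, and TGFBR2 did not pass at 0.25 (edgeR adjusted p = 0.024). Of all tested genes, 16.8% were called higher over 2-fold in this comparison. The list, like the others, was drawn up with earlier results of these data known, so its count is a description. The median log2 fold change of the 12 was 2.57, within the range of 1.14 to 6.41 of the 5 expressed genes. CDKN1A, which encodes the cell cycle inhibitor p21, rose by 5.31 (edgeR adjusted p = 2.8e-08), from 7.28 ± 0.211 to 289.5 ± 1.8 CPM. The linker histone gene HIST1H1C rose by 3.42 and the GTPase gene RHOB by 2.84 (edgeR adjusted p = 8.1e-07 and 2.1e-07). CDKN1A, like TXNIP, rose with EC359 alone, by 2.58 (edgeR adjusted p = 2.0e-06), and with EC359 added to vorinostat, by 0.70 (edgeR adjusted p = 9.6e-04). RHOB, like CLU, fell with EC359 alone, by 0.92 (edgeR adjusted p = 4.2e-04). Against EC359, the combination raised 11 of the 12 genes, with a median of 2.64, where 29.5% of all tested genes were called higher.

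**Figure D3:**
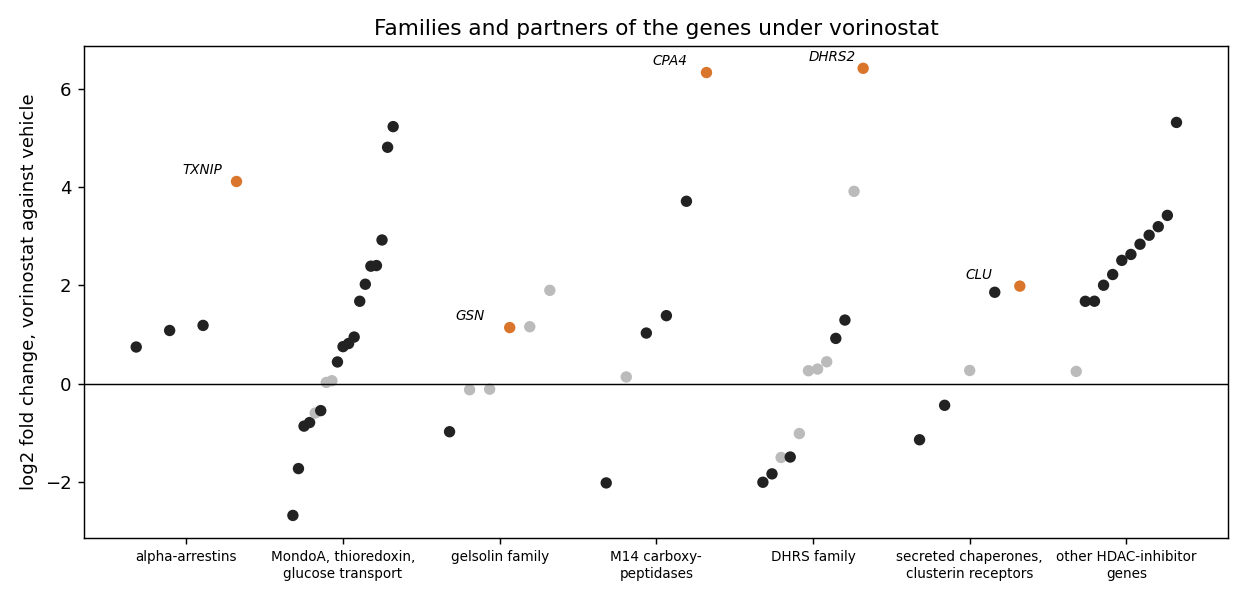
Log2 fold change of vorinostat against vehicle for each tested gene of the 7 lists of relatives and partners, with 1 point per gene sorted by value within its list. Black points passed an adjusted p under 0.01, grey points did not, and orange points are the genes described here, which are shown without a test; DHRS2, CPA4 and TXNIP stand above the relatives in their lists, whereas CLU lies close to APOE at 1.86.

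The genes next to the 6 on the chromosome changed in both directions. The 2 nearest genes on each side with a read in any library and a position in the annotation gave 24 neighbours, of which 15 were tested. Genes without reads or without a matched position were skipped, so a nearer gene may lie between. With vorinostat 4 rose, 3 fell and 8 did not pass (edgeR adjusted p under 0.01), counts to be read beside the 26.2% of all tested genes called higher and 25.9% called lower. Their median was -0.21 with a range of -2.45 to 1.69. Beside TXNIP, POLR3GL at a gap of 13.6 kb rose by 1.69 (edgeR adjusted p = 9.8e-06) and ANKRD34A at 27.9 kb by 1.01 (edgeR adjusted p = 0.0025). Beside GSN, STOM at 6.1 kb rose by 0.85 (edgeR adjusted p = 1.6e-04) and DAB2IP fell by 0.85 (edgeR adjusted p = 2.0e-04).

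Beside CLU, SCARA3 at a gap of 19.2 kb fell by 2.45 (edgeR adjusted p = 6.9e-06), while CLU was 1.99 higher. DHRS4 was the DHRS2 neighbour with the largest change, at -1.83, and lies 308.1 kb away. IGF1R, 674.7 kb from ARRDC4, rose by 0.47 (edgeR adjusted p = 0.0053). Beside CPA4, the neighbours SSMEM1, CPA5 and CPA1 had too few reads to test in these libraries although CPA4 itself was far above vehicle. With EC359 alone, where 4.01% of all tested genes were called lower, SCARA3 fell by 0.94 (edgeR adjusted p = 0.0087) and the other 14 tested neighbours did not pass.

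**Figure D4:**
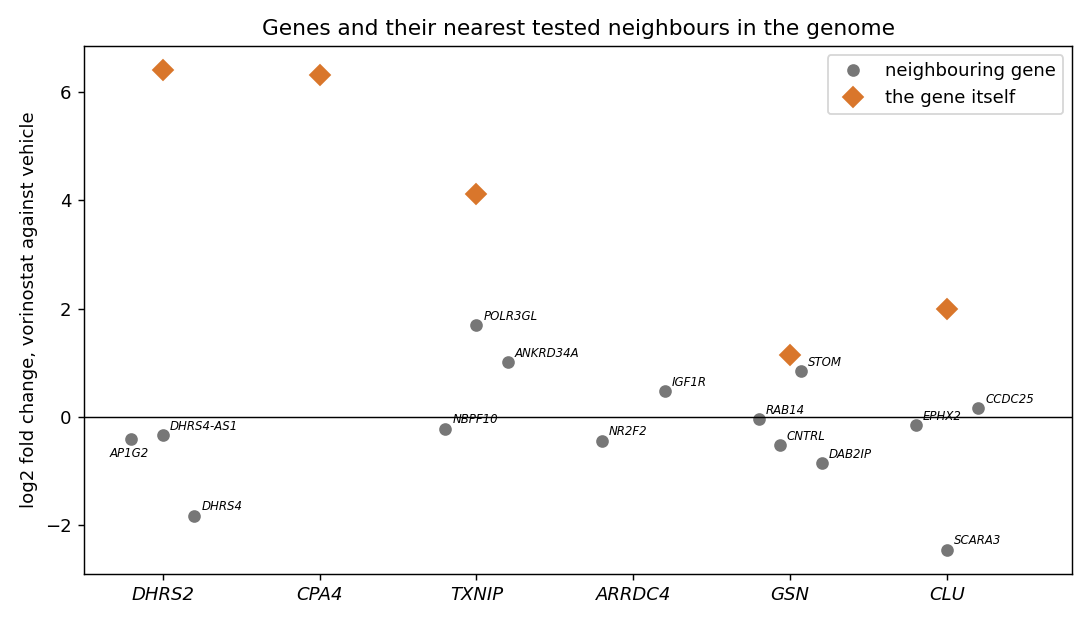
Log2 fold change of vorinostat against vehicle for the genes themselves (diamonds, shown without a test) and for their tested neighbours on the chromosome (grey points). The neighbours lay between -2.45 and 1.69, CPA4 had no tested neighbour, and ARRDC4 itself had too few reads to be shown.

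The paired half-sites seen before TXNIP were also in the windows of 15 other genes, of which 9 were tested. With vorinostat 4 of these rose, 1 fell and 4 did not pass (edgeR adjusted p under 0.01), against 26.2% and 25.9% of all tested genes called higher and lower, with a median of -0.14. STX12 rose by 1.00, RCN3 by 1.56, P4HA1 by 0.76 and KCTD5 by 0.51, and RAN fell by 1.65. None reached the log2 fold change of 4.11 of TXNIP, and with EC359 alone the 9 lay between -0.49 and 0.29, with edgeR adjusted p of 0.092 or more.

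The genes whose levels over the 8 libraries were most like those of each member were found by Pearson's r of log2 CPM among 9971 genes. The 8 points form 4 treatments, so a high r mostly reflects a similar order of the treatments. ATG4A, PLXNA3 and EPHB2 were most like DHRS2, each with r = 0.999. HCFC2 (r = 0.997), DNAJC1 (r = 0.996) and CYTH3 (r = 0.995) were most like CPA4, and all 3 were lowest with EC359 alone. UCHL3 (r = 0.999), SLC23A2 (r = 0.998) and NFKB2 (r = 0.997) were most like TXNIP and rose in the same steps. ZCCHC24 (r = 0.998), RUNDC3A (r = 0.997) and SNAI1 (r = 0.997) were most like CLU. For GSN the closest genes had lower values, with r = 0.963 for ALDH3A2, 0.958 for DHRS13 and 0.957 for ST6GALNAC4.

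Similar size was not part of this likeness. HCFC2 had a mean of 13.1 ± 0.0352 CPM in vehicle and 25.9 ± 0.126 CPM with vorinostat (SD, n = 2), a far smaller change than that of CPA4. SNAI1, which encodes the transcription factor Snail and was among the genes most like CLU, had a larger fold change with vorinostat than CLU. It was at 3.03 ± 0.0771 CPM in vehicle and 0.912 ± 0.285 CPM with EC359. With vorinostat it was at 65.9 ± 0.787 CPM, and with the combination at 74.6 ± 9.58 CPM. CLU was at 199 ± 4.64 CPM in vehicle and 789 ± 18.4 CPM with vorinostat. Among the 5 expressed genes themselves, CPA4 and CLU were most alike (r = 0.994 over 8 libraries) and CPA4 and GSN least alike (r = 0.538).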

How the data were processed

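The authors prepared total RNA libraries of BT-549 cells, read 50 bp from one end, used TopHat2 (2.0.8b, per the submitters' processing notes) for alignment to hg19 and HTSeq for counting on RefSeq genes. The HTSeq version and strand setting are not given in the sources used here. The deposited files hold raw read counts per gene for each library. Rows that name no gene were left out of library sizes. Genes held 85.1% to 88.1% of the reads that fell on genes, outside genes or ambiguously between genes.

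Counts were analysed in R 4.3.3 with edgeR 4.0.16. Genes were filtered with filterByExpr by treatment, libraries were scaled by TMM (factors 0.955 to 1.03), and 1 mean per treatment was fitted to all 8 libraries with the quasi-likelihood test. P-values were adjusted by Benjamini-Hochberg over 13694 genes, and genes passed at an adjusted p under 0.01. The further threshold of 2-fold is named where used, and numbers of genes called in the closing section use both, except for the interaction, which has no fold threshold. Standard errors were taken from the F statistic. The procedure was tested on simulated data.

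CPM values are TMM-normalised. RPKM used GENCODE exon lengths on GRCh37, with 20994 of 23228 symbols (90.4%) matched to the annotation. A count of 0 was taken to allow up to 3 counts.

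The 6 genes, the gene lists and the comparisons were chosen with earlier results of these data known. Named genes were the 6 genes and a selection of each list, mostly genes passing under vorinostat or partners of a member by role. Not every large change was named: SLC2A12, at 2.92, and DHRS11, at -1.49 with vorinostat, were left out above. The 2 nearest neighbours per side with reads and a matched position were added by rule. So were the 3 most similar genes per member, among genes with an average log2 CPM of at least 3. DHRS9, CAPG, VILL, AVIL, MLX and MLXIPL, SNAI1 and HCFC2 as examples, and the genes with paired half-sites were named after their values were seen.

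Alternatives were DESeq2 1.42.0, other normalisations and filters, no fold threshold, a replicate block and leaving out each library. Comparisons that use the same vehicle, EC359 or vorinostat libraries are not independent of each other.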

Additional observations from a re-analysis of the deposited data

Results flagged for a closer look

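For 3 genes the log2 fold change of EC359 had opposite signs without and with vorinostat, and the libraries of the groups compared did not overlap in either setting. How many of all tested genes meet the same rule was not counted. With 2 libraries per group, libraries can separate where no difference is detectable. CPA4 was at -3.04 without and 0.85 with vorinostat. GSN was at 0.73 without and -0.19 with vorinostat, and neither value passed (edgeR adjusted p = 0.012 and 0.38). CLU was at -0.65 without and 0.30 with vorinostat, and the latter did not pass (edgeR adjusted p = 0.058). The differences between the 2 settings were not tested, because the genes were chosen with the libraries that enter them.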

How the results depend on the processing

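The members' values were recomputed under other normalisations, filters and tools and without each library. Called genes, those with an adjusted p under 0.01 and more than 2-fold, numbered 502 for EC359 against vehicle, 4123 for vorinostat against vehicle, 4763 for combination against vehicle, 582 for combination against vorinostat and 4620 for combination against EC359. Without the fold threshold these were 1071, 7130, 7718, 1877 and 7642. Leaving out 1 library gave 298 to 924, 3494 to 4369, 4091 to 4995, 285 to 730 and 4146 to 4823. The interaction, counted at an adjusted p under 0.01 with no fold threshold, gave 288 genes, 713 in DESeq2 and 56 to 1437 with 1 library left out.

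The deviations of same-numbered libraries correlated at -0.173 to 0.231 between treatments. These values cannot show whether libraries of the same number were prepared together. With the replicate block the counts were 471, 4013, 4658, 557 and 4527, and 189 for the interaction. With the numbers of the combination exchanged, a pairing chosen after seeing the data, they were 547, 4189, 4785, 644, 4671 and 477. In the block CPA4 lost its call for combination against vorinostat, at 0.85 (edgeR adjusted p = 0.014), and no other call on a member changed, while GSN passed for EC359 against vehicle in the exchanged block, at 0.72 (edgeR adjusted p = 0.0025).

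CPA4 for combination against vorinostat was also lost with RLE normalisation, at 0.82 (edgeR adjusted p = 0.012), and with total counts, at 0.77 (edgeR adjusted p = 0.014). GSN for EC359 against vehicle passed in DESeq2 at 0.74 and without the filter at 0.76. With 1 library left out, the values for EC359 against vehicle ran from -0.07 to 0.40 for DHRS2, -8.15 to -2.18 for CPA4, 0.44 to 0.99 for GSN and -0.80 to -0.50 for CLU. Those for combination against vorinostat ran from 0.74 to 0.88 for CPA4, 0.64 to 0.76 for TXNIP and 0.19 to 0.33 for CLU. Those for combination against EC359 ran from 9.35 to 15.33 for CPA4 and -0.04 to 0.50 for GSN, and that of CLU for combination against vehicle from 2.17 to 2.31. The interaction ran from -0.30 to 0.17 for DHRS2, 3.04 to 9.01 for CPA4, -1.04 to -0.77 for TXNIP, -1.18 to -0.63 for GSN and 0.81 to 1.10 for CLU. DHRS2 with EC359 (-0.0711) and GSN for combination against EC359 (-0.0434) changed sign, both without EC359 replicate 1. The causes were not tested. Requiring 10 counts in every library removed CPA4. With 2 libraries a treatment, small changes could not be told from the spread between libraries.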
